A study of Arabidopsis thaliana with 6 samples.

Results

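The genes described here are 57 nuclear genes of the photosynthetic light reactions of Arabidopsis thaliana, out of 27655 loci in the RNA-seq tables. They were chosen by name: the light-harvesting genes LHCA and LHCB, the related PSBS, ELIP, OHP and LIL3 genes, nuclear subunits of photosystems I and II, the Rieske protein PETC, plastocyanin, ferredoxin and ferredoxin-NADP reductase (FNR). All 57 were found in both tables, and 56 had at least 20 reads over both libraries and are called measured. The exception was ELIP2 (AT4G14690), with 10 reads in the jmj16-labelled library and 2 in wild type. The study holds 6 samples, of which 2 RNA-seq libraries are used here: 1 from plants labelled jmj16 and 1 from wild type plants, both in the Col-0 background. The mutant line is the single allele jmj16-1, in a gene for a demethylase of histone H3 lysine 4. Both libraries came from fully expanded rosette leaves 5 and 6 that showed no yellowing, from plants kept 6 days on plates before soil, at 22 °C in days of 16 h light and 8 h darkness. The labels give the age as 4 weeks in one field and 5 weeks in another. The 4 chromatin immunoprecipitation samples were not analysed here.

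In the light reactions, antenna proteins of the LHC family bind chlorophyll and pass absorbed light energy to the reaction centres of photosystem II and photosystem I. Photosystem II takes electrons from water, the cytochrome b6f complex and plastocyanin carry them on, and photosystem I passes them to ferredoxin, from which FNR makes NADPH. The reaction-centre cores are encoded in the chloroplast genome, whereas the antenna and most peripheral subunits are encoded in the nucleus. These nuclear genes give some of the most abundant mRNAs of a green leaf, and a decline of their mRNAs is a well-known part of leaf senescence.

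The jmj16-labelled library held 13844284 estimated reads and the wild type library 10643186. Organelle genes held 1.61% of reads in the jmj16-labelled library and 2.35% in wild type. Each genotype had 1 library, so no difference below was checked against replicates or given a p-value. Ratios put the jmj16-labelled library over wild type, after scaling of library size, and the intervals of genes, sums and shares are 95% counting intervals, which cover counting error only. The interval of a median instead reflects the spread over the genes of the list. The rule for calling a gene higher or lower was a difference of 2-fold or more with an interval that excluded a ratio of 1. JMJ16 itself (AT1G08620) had 168 reads in the jmj16-labelled library and 188 in wild type, a log2 ratio of -0.63 (-0.94 to -0.33). JMJ16 has a long transcript (4427 nt), and with the length correction described below its log2 ratio was 0.37, on the other side of 0. Its count therefore does not check the label.

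Nearly all light-reaction genes had a lower scaled mRNA level in the jmj16-labelled library, by a similar and moderate amount. Of the 56 measured genes, 54 had a log2 ratio below 0 and 2 above it, whereas 48.8% of the 17151 measured genes of all kinds lay below 0. The median log2 ratio was -0.45 (95% interval of the median -0.51 to -0.35), against 0.02 over all measured genes. Most genes differed by less than 2-fold: 2 of 56 were called higher, 1 was called lower and 53 were neither. Over all measured genes the rule called 7.22% higher and 10.6% lower, so the calls alone do not set these genes apart from the background. In numbers these were 1239 genes higher and 1825 lower, a split that became 941 higher and 747 lower on the log2(TPM + 1) scale, with the same 3 light-reaction genes called. At a threshold of 1.5-fold, 15 of 56 (26.8%) were lower, where the background was 19.6%, and 2 of 56 (3.57%) were higher, where the background was 16.4%. In bulk leaf RNA, fewer cells of a type and less RNA per cell cannot be told apart.

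Together the 57 genes took 14.8% of all reads in the jmj16-labelled library (exact interval 14.76% to 14.80%) and 19.1% in wild type (19.10% to 19.15%). In read numbers the sums were nearly the same, 2046010 in the deeper jmj16-labelled library and 2035845 in wild type. On the TPM scale, which corrects for transcript length and library total, they summed to 153161 TPM in the jmj16-labelled library and 202139 TPM in wild type. The 100 most abundant genes by TPM included 31 of them in the jmj16-labelled library and 36 in wild type. Of the 57, 36 exceeded 1000 TPM in the jmj16-labelled library and 42 did in wild type.

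**Figure D1:**
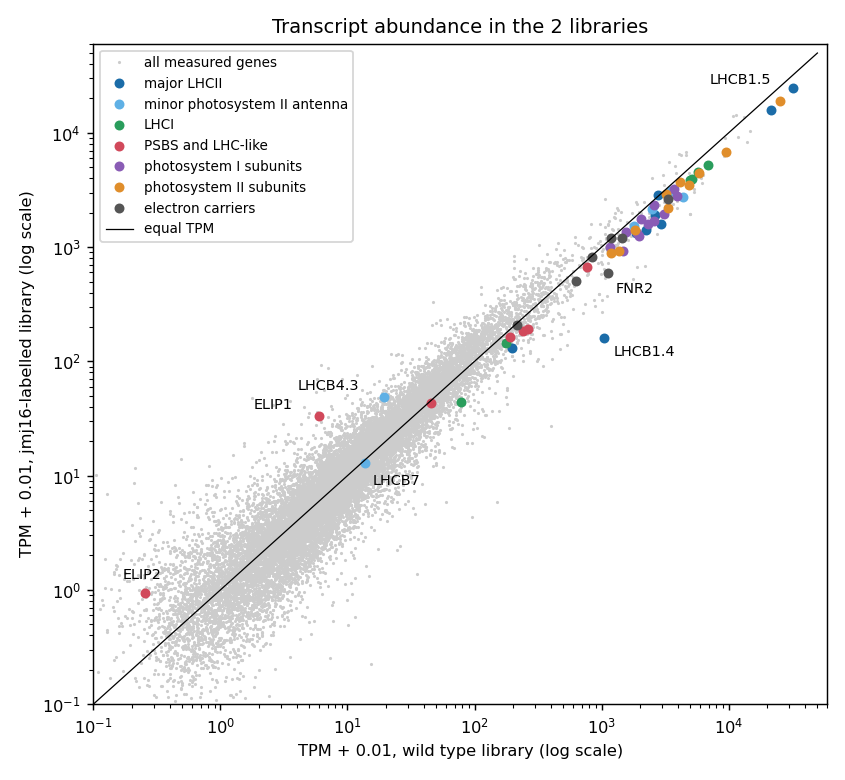
TPM of each gene in the jmj16-labelled library (vertical axis) against wild type (horizontal axis), both with 0.01 added and on log scales, with the light-reaction genes coloured by role, all other measured genes in grey and the line of equal TPM in black (genes under 0.1 TPM are not drawn). Most coloured points above 100 TPM lie in a narrow band just under the line. ELIP1, ELIP2 and LHCB4.3 lie clearly above it, LHCB1.2 and FD2 only just above it, and LHCB1.4 far under it.

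The log2 ratios of these genes also lay close together. Of the 56 measured genes, 38 (67.9%) were within 0.25 of their median, whereas 29.6% of all measured genes were within 0.25 of theirs. Their interquartile range was 0.32, against 0.91 over all measured genes. Abundance moved with membership, since 45 of the 56 averaged at least 500 TPM over the libraries. The 159 other nuclear genes at that level had a median log2 ratio of 0.05 (-0.04 to 0.16), with 74 below 0 and 85 above it, an interquartile range of 0.78 and 30.2% within 0.25 of their median. That level was chosen after the values had been seen.

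**Figure D2:**
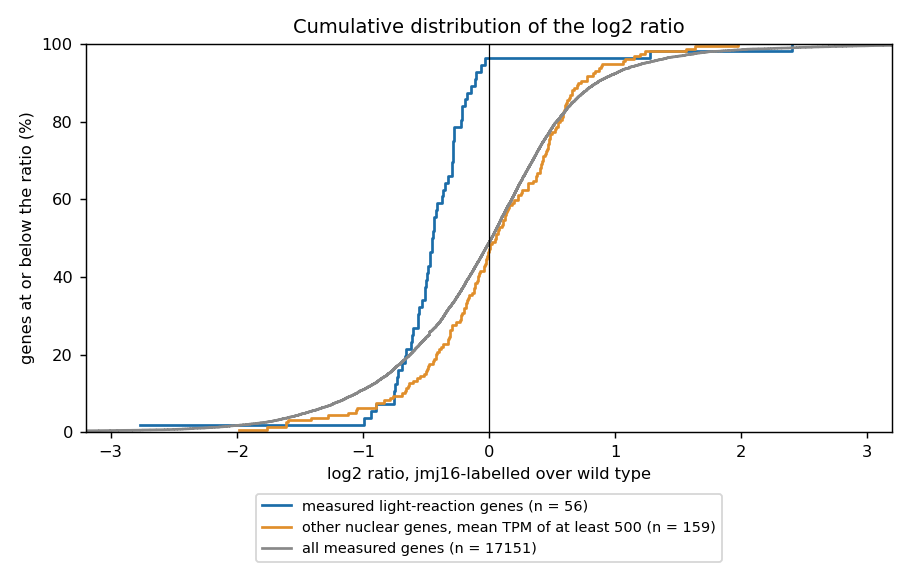
Cumulative share of genes (%) at or below each log2 ratio (jmj16-labelled over wild type), for the 56 measured light-reaction genes, the 159 other nuclear genes averaging at least 500 TPM and all 17151 measured genes. The curve of the light-reaction genes climbs steeply around its median of -0.45 and has passed 96.4% at 0, where the curve of all measured genes is at 48.8%.

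The major light-harvesting complex of photosystem II (LHCII) is a trimer built from LHCB1, LHCB2 and LHCB3 proteins, and all 9 of its genes had a log2 ratio below 0, with a median of -0.57. LHCB1.5 (AT2G34420) was the most abundant of all the light-reaction genes, with 24939.5 TPM in the jmj16-labelled library and 32209.8 TPM in wild type. Its log2 ratio was -0.44 (-0.45 to -0.43). LHCB1.3 (AT1G29930) had 15933 TPM in the jmj16-labelled library and 21591 TPM in wild type, with a log2 ratio of -0.51 (-0.52 to -0.50). These 2 genes hold most of the LHCB1 mRNA and moved by nearly the same amount. LHCB1.1 (AT1G29920) had 1321 TPM in the jmj16-labelled library and 1862 TPM in wild type, a log2 ratio of -0.57. LHCB1.2 (AT1G29910) was close to equal, with 2839 TPM in the jmj16-labelled library and 2760 TPM in wild type. Its log2 ratio of -0.03 (-0.05 to -0.01) became 0.06 with total-count scaling and 0.04 on the log2(TPM + 1) scale, so its direction depends on the scaling.

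LHCB1.4 (AT2G34430) was the only light-reaction gene called lower at 2-fold. It had 2829 reads in the jmj16-labelled library (Poisson interval 2730 to 2940) and 13902 in wild type, or 162 TPM in the jmj16-labelled library and 1049 TPM in wild type. The jmj16-labelled library was 6.81-fold lower (6.54 to 7.10). LHCB1.4 and LHCB1.5 are next to each other in the gene order, and the log2 ratio of LHCB1.4 was 2.33 below that of LHCB1.5 (difference -2.33, Wald interval -2.39 to -2.27). The LHCB1 genes are near-identical in parts and the quantifier divides reads that fit several of them, so the value of a single LHCB1 gene is uncertain. Summed over the 5 LHCB1 genes, which depends less on that division, there were 655688 reads in the jmj16-labelled library and 655850 in wild type, a log2 ratio of -0.47 (-0.48 to -0.47). LHCB1.4 made up 0.358% of LHCB1 TPM in the jmj16-labelled library and 1.76% in wild type, so its difference hardly moved the family.

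In the LHCB2 family, whose proteins are phosphorylated when antennas move between photosystems, the 3 genes had log2 ratios from -0.75 to -0.47. LHCB2.1 (AT2G05100) had 1924 TPM in the jmj16-labelled library and 2611 TPM in wild type. Its log2 ratio of -0.47 became -0.25 from its most abundant transcript model alone. LHCB2.2 (AT2G05070) had 1399.9 TPM in the jmj16-labelled library and 2249 TPM in wild type, a log2 ratio of -0.75 (-0.78 to -0.73). LHCB2.3 (AT3G27690), the least abundant, had 131 TPM in the jmj16-labelled library and 197 TPM in wild type. The family sum, which depends less on how reads are divided between paralogs, had a log2 ratio of -0.59 (-0.61 to -0.57). LHCB3 (AT5G54270), found in the moderately bound LHCII trimers, came nearer to 2-fold, with 1609 TPM in the jmj16-labelled library and 2934 TPM in wild type, 1.92-fold lower (1.88 to 1.95).

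**Figure D3:**
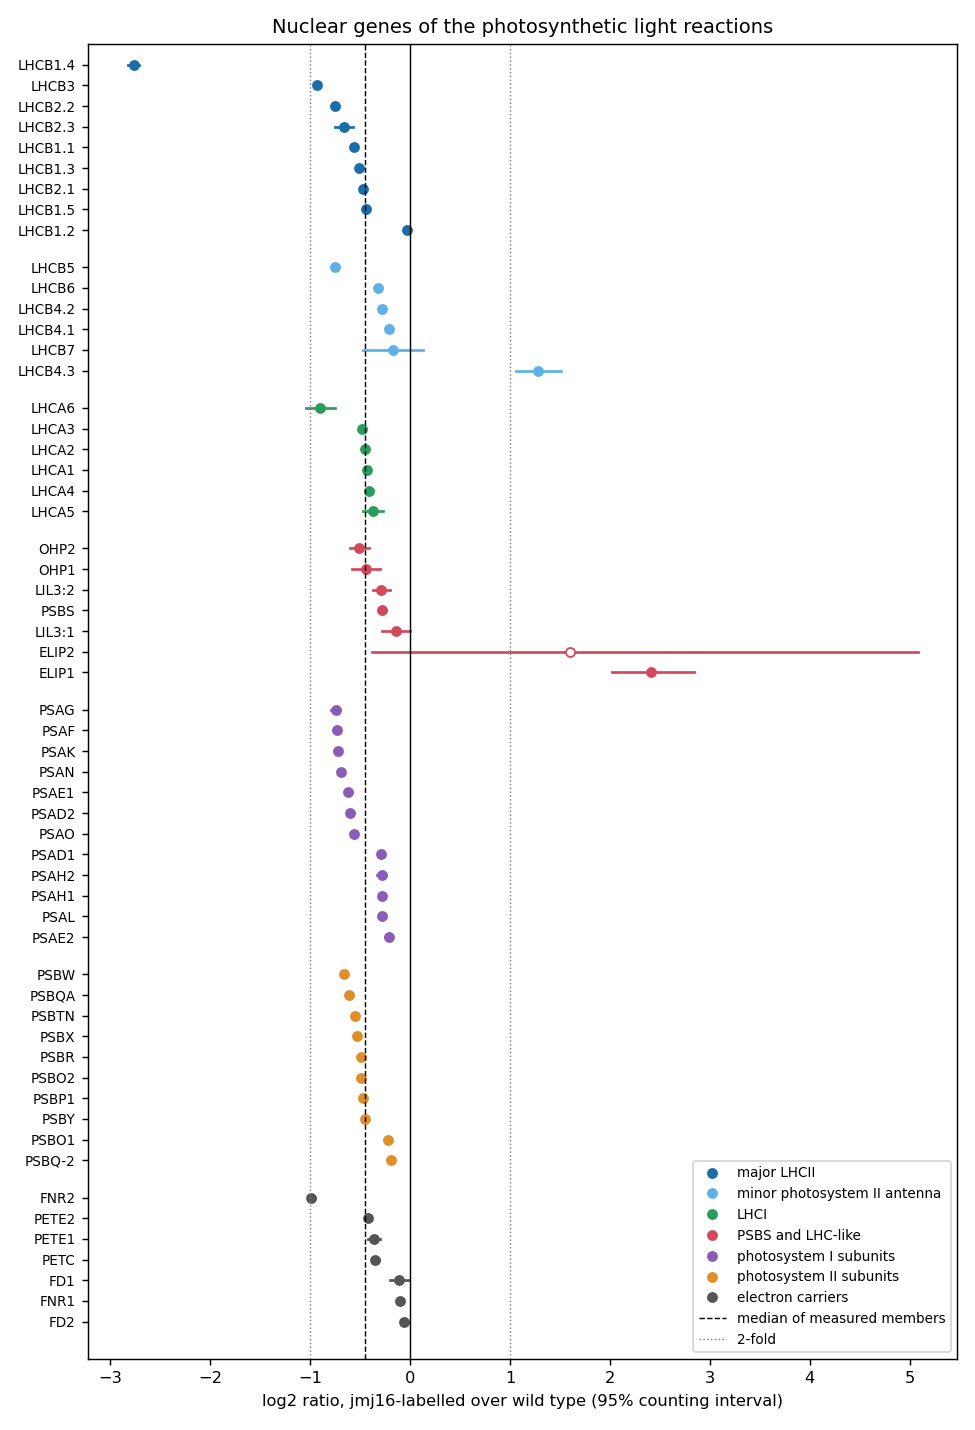
Log2 ratio (jmj16-labelled over wild type) for each of the 57 genes, grouped by role and sorted within it, with bars for the 95% counting interval, a dashed line at the median of the measured genes (-0.45), a solid line at 0 and dotted lines at 2-fold. ELIP2, with too few reads to count as measured, is drawn open. Apart from ELIP1, ELIP2 and LHCB4.3 to the right and LHCB1.4 to the left, every point lies between -1 and 0.

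The minor antenna proteins link LHCII to the photosystem II core, and 5 of their 6 genes had a log2 ratio below 0. LHCB5 (AT4G10340), which encodes CP26, stood lowest among them with 2732 TPM in the jmj16-labelled library and 4391 TPM in wild type, 1.69-fold lower (1.67 to 1.71). LHCB6 (AT1G15820), which encodes CP24, had 1516 TPM in the jmj16-labelled library and 1808 TPM in wild type, a log2 ratio of -0.32. The CP29 genes split. LHCB4.1 (AT5G01530) and LHCB4.2 (AT3G08940) supply nearly all CP29 mRNA. LHCB4.1 had 3118 TPM in the jmj16-labelled library and 3452 TPM in wild type, a log2 ratio of -0.22 (-0.23 to -0.20), and LHCB4.2 had a log2 ratio of -0.28. LHCB4.3 (AT2G40100), a rare isoform, was called higher: it had 698 reads in the jmj16-labelled library and 207 in wild type, or 48.8 TPM in the jmj16-labelled library and 19.3 TPM in wild type, and was 2.43-fold higher (2.08 to 2.85). Both of its transcript models were higher, AT2G40100.1 with 472 reads in the jmj16-labelled library and 136 in wild type, and AT2G40100.2 with 226 reads in the jmj16-labelled library and 71.2 in wild type. It remained a small part of the family, at 0.919% of LHCB4 TPM in the jmj16-labelled library and 0.324% in wild type. LHCB7 (AT1G76570), a rarely expressed relative, had 204 reads in the jmj16-labelled library and 166 in wild type, and its interval (-0.48 to 0.13) included 0.

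The antenna of photosystem I (LHCI) is built mainly from LHCA1 to LHCA4, and the 6 LHCA genes had the smallest interquartile range of log2 ratios of the 7 roles, 0.06. Log2 ratios were -0.44 for LHCA1 (AT3G54890), -0.45 for LHCA2 (AT3G61470), -0.48 for LHCA3 (AT1G61520) and -0.41 for LHCA4 (AT3G47470). LHCA3, the most abundant, had 5266 TPM in the jmj16-labelled library and 6843 TPM in wild type. LHCA5 and LHCA6 are minor proteins that attach photosystem I to the NDH complex of cyclic electron flow. LHCA5 (AT1G45474) had 144 TPM in the jmj16-labelled library and 178 TPM in wild type, a log2 ratio of -0.37 (-0.47 to -0.27). LHCA6 (AT1G19150) had 44.2 TPM in the jmj16-labelled library and 78.5 TPM in wild type, a log2 ratio of -0.90 (-1.05 to -0.75). The intervals of this pair do not overlap.

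Among the photoprotective and LHC-like genes, 1 was called. ELIP1 (AT3G22840), an early light-induced pigment-binding protein made when chloroplasts are under light stress, had 429 reads in the jmj16-labelled library (Poisson interval 389 to 472) and 58 in wild type. That was 33.2 TPM in the jmj16-labelled library and 5.92 TPM in wild type, 5.29-fold higher (4.05 to 7.14), the highest ratio among the measured light-reaction genes. ELIP2, with its 10 reads in the jmj16-labelled library and 2 in wild type, had a ratio of 3.03 whose interval (0.768 to 33.8) included 1. PSBS (AT1G44575), the sensor of lumen acidity for the dissipation of excess light, had 664 TPM in the jmj16-labelled library and 770 TPM in wild type, a log2 ratio of -0.28 (-0.32 to -0.24). The one-helix proteins OHP1 (AT5G02120) and OHP2 (AT1G34000), needed to assemble photosystem II, had log2 ratios of -0.45 and -0.51. LIL3:1 (AT4G17600) and LIL3:2 (AT5G47110), which hold enzymes of chlorophyll synthesis at the membrane, had log2 ratios of -0.14 (-0.28 to -0.0015) and -0.29 (-0.37 to -0.21). With total-count scaling LIL3:1 was at -0.05. PSBS, OHP and LIL3 genes thus lay on the side of the antenna genes other than LHCB4.3, and ELIP1 lay on the side of LHCB4.3.

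All 12 photosystem I subunit genes had a log2 ratio below 0, with a median of -0.58, and 9 of them are given as a lower and an upper group, split after the values had been seen. The lower group is not clearly apart from the remaining genes: with length correction PSAE1, outside it, was at -0.98 and PSAF, inside it, at -0.97. From -0.75 to -0.69 were PSAG (AT1G55670) and PSAK (AT1G30380), small peripheral subunits of the core, PSAF (AT1G31330), which docks plastocyanin, and PSAN (AT5G64040), on the lumen side. PSAK had 1964 TPM in the jmj16-labelled library and 3092 TPM in wild type, a log2 ratio of -0.73 (-0.75 to -0.70). From -0.29 to -0.22 were PSAL (AT4G12800), PSAH1 (AT3G16140), PSAH2 (AT1G52230), PSAD1 (AT4G02770) and PSAE2 (AT2G20260). PSAL and the PSAH proteins form the side where LHCII docks in state transitions, and PSAL had 3206 TPM in the jmj16-labelled library and 3711 TPM in wild type, a log2 ratio of -0.28 (-0.30 to -0.26). PSAO (AT1G08380), of the same side, had 2817 TPM in the jmj16-labelled library and 3956 TPM in wild type, a log2 ratio of -0.56. PSAE1 (AT4G28750) and PSAD2 (AT1G03130), paralogs of genes in the upper group and part of the ferredoxin docking site, had log2 ratios of -0.62 and -0.60.

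The 10 nuclear genes of photosystem II subunits had log2 ratios from -0.66 to -0.19, with a median of -0.49. PSBR (AT1G79040), a subunit that helps to hold the oxygen-evolving complex, was among the most abundant mRNAs of the leaf, with 18997 TPM in the jmj16-labelled library and 25522 TPM in wild type, a log2 ratio of -0.50 (-0.51 to -0.49). Of the oxygen-evolving complex, PSBO1 (AT5G66570) had 3747 TPM in the jmj16-labelled library and 4156 TPM in wild type, a log2 ratio of -0.22 (-0.24 to -0.21). PSBP1 (AT1G06680) had 4418 TPM in the jmj16-labelled library and 5812 TPM in wild type, a log2 ratio of -0.47. PSBO2 (AT3G50820) and PSBQA (AT4G21280), each the less abundant of its pair, had log2 ratios of -0.49 and -0.61, while PSBQ-2 (AT4G05180) had -0.19. Small subunits had these log2 ratios: PSBW (AT2G30570) at -0.66, PSBTN (AT3G21055) at -0.55, PSBX (AT2G06520) at -0.53 and PSBY (AT1G67740) at -0.45.

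The 7 electron carrier genes all had a log2 ratio below 0, with a median of -0.35 and a range from -0.99 to -0.06. PETC (AT4G03280), the Rieske iron-sulphur protein of cytochrome b6f, had 1195 TPM in the jmj16-labelled library and 1451 TPM in wild type, a log2 ratio of -0.35 (-0.38 to -0.32). PETE2 (AT1G20340), the main plastocyanin gene and the most abundant carrier, had 2619 TPM in the jmj16-labelled library and 3342 TPM in wild type, a log2 ratio of -0.42 (-0.44 to -0.40). The second plastocyanin gene, PETE1 (AT1G76100), had a log2 ratio of -0.37. Ferredoxin was close to equal: FD2 (AT1G60950), the main leaf form, had 1197 TPM in the jmj16-labelled library and 1188 TPM in wild type, and FD1 (AT1G10960) had 209.6 TPM in the jmj16-labelled library and 216 TPM in wild type. The log2 ratio of FD2 was -0.06 (-0.10 to -0.02), and it was 0.03 with total-count scaling and 0.01 on the log2(TPM + 1) scale, so its direction also depends on the scaling.

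FNR2 (AT1G20020) was the lowest of the carriers and just missed being called at 2-fold. It had 598 TPM in the jmj16-labelled library and 1132 TPM in wild type, 1.99-fold lower (1.94 to 2.04, log2 ratio -0.99). From its most abundant transcript model alone the log2 ratio was -1.03, which passed the rule. FNR1 (AT5G66190), the other leaf isoform, had 818 TPM in the jmj16-labelled library and 837 TPM in wild type, a log2 ratio of -0.10 (-0.13 to -0.07). With total-count scaling the log2 ratio of FNR1 was -0.01, and on the log2(TPM + 1) scale it was -0.03. The ratio of FNR1 to FNR2 on the TPM scale was 1.37 in the jmj16-labelled library and 0.739 in wild type, so the order of the isoforms was the opposite in the 2 libraries. The called gene nearest to 2-fold was LHCB4.3, on the higher side. On the lower side no gene lay between FNR2 and LHCB1.4.

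Among families of 2 measured genes, the others shifted less than FNR. PSBQ-2 exceeded PSBQA by 3.17 times in the jmj16-labelled library and 2.34 times in wild type on the TPM scale, with a difference of log2 ratios of 0.42 (Wald interval 0.38 to 0.46). PSAE1 had 0.688 of the TPM of PSAE2 in the jmj16-labelled library and 0.909 in wild type. PSBO1 exceeded PSBO2 by 4.23 times in the jmj16-labelled library and 3.5 times in wild type, and PSAD1 exceeded PSAD2 by 1.34 times in the jmj16-labelled library and 1.08 times in wild type. The difference of log2 ratios was 0.00 (-0.05 to 0.06) for PSAH1 over PSAH2, 0.06 (-0.01 to 0.12) for PETE1 over PETE2 and -0.05 (-0.15 to 0.05) for FD1 over FD2. For LIL3:1, the less abundant of its pair, over LIL3:2 it was 0.15 (-0.01 to 0.31). The intervals of the PSAH, PETE, FD and LIL3 pairs include 0. In the PSBQ, PSAE, PSBO and PSAD pairs the more abundant gene had the higher ratio, and in the FNR pair the gene that was less abundant in wild type did.

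**Figure D4:**
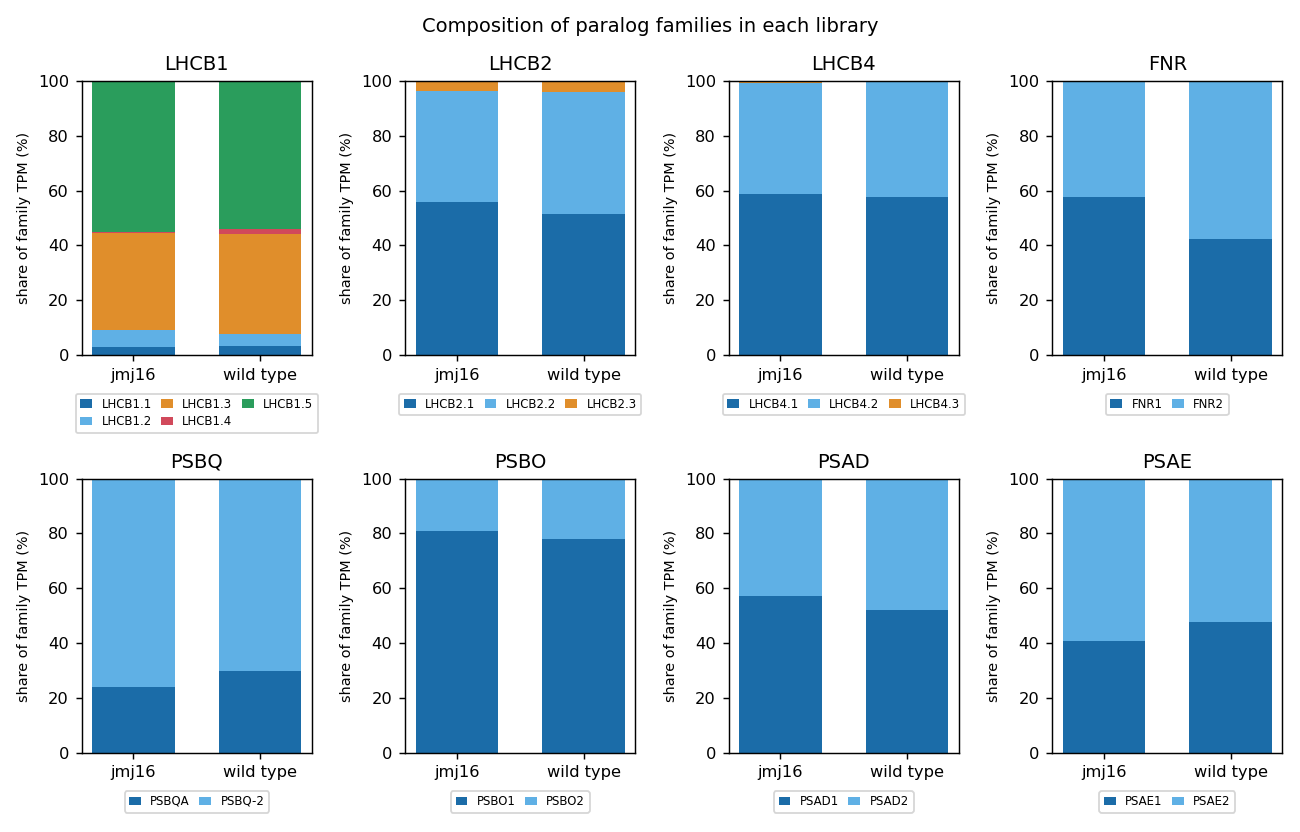
Share of each gene in the summed TPM of its paralog family (%), with the jmj16-labelled library on the left and wild type on the right of each panel. FNR shows the widest shift, with FNR1 at 57.8% in the jmj16-labelled library and 42.5% in wild type, while LHCB1 and LHCB4 keep nearly the same make-up apart from the thin slices of LHCB1.4 and LHCB4.3.

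The balance between complexes was nearly the same in both libraries. Photosystem II antenna genes summed to 1.3 times the TPM of photosystem II subunit genes in the jmj16-labelled library and 1.31 times in wild type. LHCI genes summed to 0.841 times the TPM of photosystem I subunit genes in the jmj16-labelled library and 0.812 times in wild type. The ratio of photosystem II to photosystem I subunit genes was 2.17 in the jmj16-labelled library and 2.15 in wild type. The summed TPM of each role was 15.3% (PSBS and LHC-like) to 25.5% (major LHCII) lower in the jmj16-labelled library than in wild type.

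Several genes have more than 1 transcript model (18 of 57), and reads were divided among them by the quantifier. LHCB2.1 had 67.1% of its reads on AT2G05100.1 in the jmj16-labelled library and 57.5% in wild type. PSBQA had 13.3% of its reads on AT4G21280.2 in the jmj16-labelled library and 21.8% in wild type. LHCA1 had 114 reads on AT3G54890.3 in the jmj16-labelled library and 1.23 in wild type, a very small part of the reads of the locus, which had 56505 in the jmj16-labelled library and 55132 in wild type. These models were singled out after their values had been seen, and the split is an estimate.

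Transcript length moved with the log2 ratio over all measured genes, in which longer transcripts had lower ratios (Spearman rho -0.435 across 17151 genes of the same 2 libraries). The light-reaction genes are short, with a median length of 1157 nt against 1638 nt over all measured genes. Among themselves they showed little of this relation (rho 0.115 over 56 genes). The 4364 other nuclear genes of at most 1200 nt, a limit chosen after the values had been seen, had a median log2 ratio of 0.34, so the light-reaction genes lay on the other side of 0 from most genes of their length. With the ratio corrected for its trend with length, their median became -0.69, with 54 still below 0. Then 8 were called lower, where the background was 6.64%, and the same 2 were called higher, where the background was 6.21%. Of those called higher, LHCB4.3 had a corrected log2 ratio of 1.03, only just past 2-fold, and ELIP1 had 2.12. The 8 were LHCB1.4, LHCB2.2, LHCB3, LHCA6, PSAG, PSAK, PSAN and FNR2, with corrected log2 ratios of -1.01 for LHCB2.2, -1.16 for LHCB3, -1.15 for LHCA6 and -1.14 for FNR2.

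**Figure D5:**
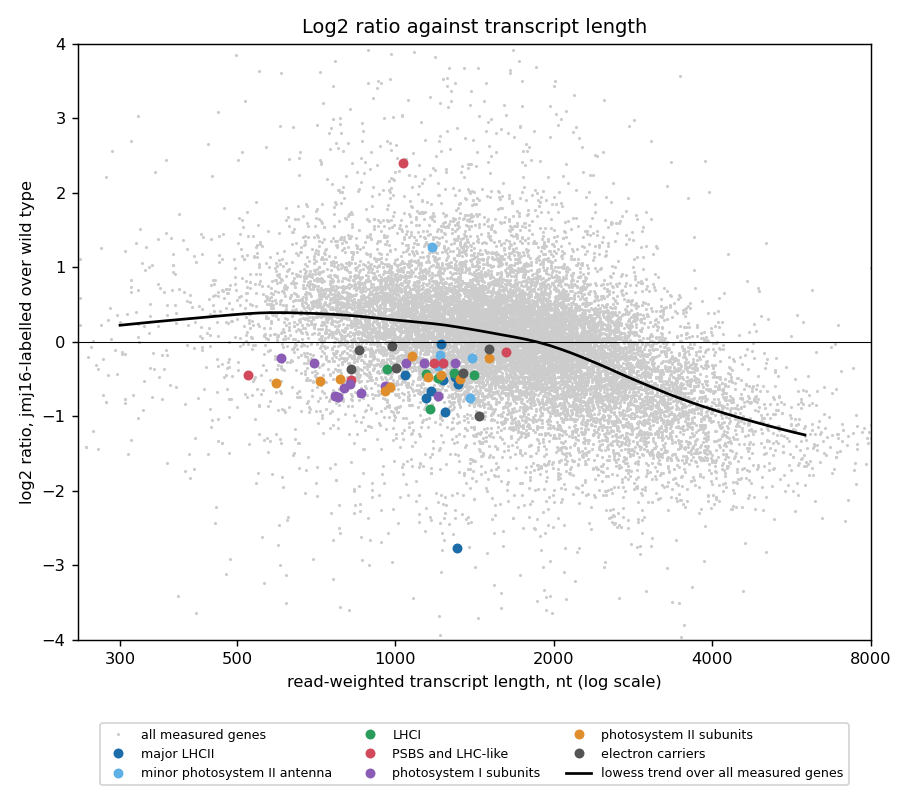
Log2 ratio, jmj16-labelled over wild type (vertical axis), against read-weighted transcript length in nt (horizontal axis, log scale) for the measured light-reaction genes, coloured by role, and all measured genes, in grey, with their lowess trend as a black line and the few genes beyond the axis limits not drawn. The trend is above 0 over the lengths of the light-reaction genes, from 526 to 1620 nt, and almost all coloured points lie below it.

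Other nuclear genes of the pathway lay mostly on the same side. Of 47 such genes in 7 lists, which hold chloroplast proteins and the 2 GLK regulators, 41 had a log2 ratio below 0, with a median of -0.44 (-0.51 to -0.36). By the 2-fold rule 0 were higher, where the background was 7.22%, and 3 were lower, or 6.38% of them, where the background was 10.6%. The 14 genes of the NDH complex had a median of -0.54, and among them PNSB3 was called lower, with 42.5 TPM in the jmj16-labelled library and 81.3 TPM in wild type, 2.01-fold lower (1.78 to 2.28). The other called genes were FTSH2 and FTSH8, proteases that remove damaged D1 protein from photosystem II, at 2.03-fold lower (1.98 to 2.09) and 2.12-fold lower (1.97 to 2.28). Their transcripts are long, at 2378 and 2403 nt, and their length-corrected log2 ratios were -0.75 and -0.80. The correction moved short NDH genes the other way, with NDHL at -1.05, NDHN at -1.17, PNSB5 at -1.001, PNSL2 at -1.003 and PNSB3 at -1.35. The remaining lists had no called gene. The 4 nuclear subunit genes of the chloroplast ATP synthase had a median of -0.46, with ATPC1, its gamma subunit, at -0.48. The 4 genes for import and insertion of LHC proteins had a median of -0.49, with the insertase ALB3 at -0.51. The 6 genes of cyclic electron flow and state transitions had a median of -0.50, with TAP38, the phosphatase of LHCII, at -0.25. The 4 CURT1 genes of thylakoid curvature had a median of -0.37, with CURT1B at -0.42 and CURT1D on the other side of 0, at 0.67 (0.37 to 0.98).

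GLK1 and GLK2, transcription factors that activate many antenna genes, had log2 ratios of 0.26 (0.20 to 0.31) and 0.25 (0.19 to 0.32). GLK1 had 307 TPM in the jmj16-labelled library and 241 TPM in wild type. Their values thus lay on the other side of 0 from those of the antenna genes other than LHCB4.3. For LHCB1.2 this depended on the scaling. Both GLK values lay inside the interquartile range of all measured genes, -0.48 to 0.43. With length correction GLK1 was at 0.18 and GLK2 at 0.16. Of 11 light-reaction genes encoded in the chloroplast genome, 10 had a log2 ratio below 0 and none passed the rule, with a median of -0.26 (-0.51 to -0.01). Among the 10, PSBB (-0.02), PETB (-0.04) and PETD (-0.01) lay close to 0, and their intervals included it. ATPB, a subunit of the ATP synthase and the one with most reads, had a log2 ratio of -0.84 (-0.85 to -0.82). The gene above 0 was PSBA, for the D1 protein, at 0.46 (0.38 to 0.53), named after its value had been seen. How RNA was selected for the libraries is not stated, so levels of chloroplast transcripts cannot be set against those of nuclear ones.

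Markers of the leaf's cell types moved as well. The background for their calls was 7.22% higher and 10.6% lower over all measured genes. The 3 mesophyll genes RBCS1A, RCA and CA1 were abundant and summed to 12790 TPM in the jmj16-labelled library and 19590 TPM in wild type. CA1 was called lower, at 3.96-fold. All 5 epidermis and guard cell markers had a log2 ratio below 0, with KAT1, FAMA and PDF1 called lower, and they summed to 23.9 TPM in the jmj16-labelled library and 35.3 TPM in wild type. The interval of MYB60 (-0.59 to 0.09) included 0. With length correction 4 of the 5 markers were below 0, and ATML1, with a transcript of 3197 nt, was at 0.37. The corrected log2 ratios were -0.49 for KAT1 and -0.99 for FAMA, both inside 2-fold, and -1.99 for PDF1. The 7 vascular markers summed to 131.0 TPM in the jmj16-labelled library and 166.6 TPM in wild type, and 3 of the 6 measured ones, all xylem genes with few reads, were called higher. These were XCP1 with 26 reads in the jmj16-labelled library and 5 in wild type, XCP2 with 91 in the jmj16-labelled library and 21 in wild type, and CESA8 with 18 in the jmj16-labelled library and 2 in wild type. The phloem genes SUC2 and APL had log2 ratios of -0.47 and -0.60, and SUC2 held most of the vascular sum, with 112.0 TPM in the jmj16-labelled library and 147.9 TPM in wild type. Of 4 floral and seed markers, 2 were measured and both were called lower. SEP1 had 2 reads in the jmj16-labelled library and 35 in wild type, and CRA1 had 0 reads in the jmj16-labelled library and 23 in wild type. The number of these 4 genes with no read at all was 3 in the jmj16-labelled library and 1 in wild type, and the list summed to 0.107 TPM in the jmj16-labelled library and 3.75 TPM in wild type. The 4 root markers summed to 10.2 TPM in the jmj16-labelled library and 8.58 TPM in wild type. The part of these markers in the values of the light-reaction genes was not tested.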

How the data were processed

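RNA-seq of 2 libraries was analysed. The authors deposited, per library, an estimated count of reads for each of 48359 transcript models, with the columns of a Salmon table per the file headers. The deposited tables also hold TPM, which the authors' quantifier corrects for length and library total. Per the submitters' processing notes the tools were Bowtie2, deepTools, Salmon, SAMtools and TopHat2, and the build was TAIR10, with neither role nor version. Quantifier settings, annotation release, strandedness and RNA selection were not given in the sources used here.

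Estimated counts and TPM were summed per locus and counts rounded. Library sizes were scaled with TMM (edgeR 4.0.16, R 4.3.3, used for scaling only; factors 1.03 for jmj16 and 0.969 for wild type), and 0.5 was added to each count. Intervals are exact 95% Clopper-Pearson for ratios and shares, exact Poisson for counts, and order-statistic for medians (the range under 6 genes). Differences between 2 genes' log2 ratios have Wald intervals. Apart from those of medians, which reflect the spread over genes, they cover counting error only, and reads are not independent molecules. The length correction subtracts a lowess trend (span 0.3, Python 3.11.15 with statsmodels 0.14.6). Scripts were tested on simulated data. Symbols came from a RefSeq table of assembly TAIR10.1, which matched all 57 members. Names such as LHCB1.1 (CAB2 there) and the gene roles are general knowledge. Near-identical paralogs share reads.

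The members, the gene lists and the tests were chosen with earlier results of these data known. Any member could be named. Full values were given for called members, for the most abundant of each role and for those nearest the 2-fold rule. From the other lists, called genes were named, or else the gene with most reads. Further genes of these lists were named after their values had been seen. Alternatives were other scalings, the log2(TPM + 1) scale, 5 as added count, only the most abundant transcript, no minimum or 100 reads, folds of 1.5 and 4, an interval wholly beyond 2-fold, length correction and summed paralog families.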

Additional observations from a re-analysis of the deposited data

How the results depend on the processing

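No paired analysis was possible because each genotype had 1 library. Over 561 values of single light-reaction genes under the alternatives, 4 took another sign, those of LHCB1.2 and FD2 given above, and no called gene did. Part of the 561 could not change. A different minimum of reads leaves the ratio of a gene as it is, and so does the most abundant transcript alone for genes with a single model. The median log2 ratio moved outside its interval with length correction, to -0.69. Total-count scaling shifted the median of all genes to 0.11 and that of the light-reaction genes to -0.36. The 2 genes called higher (3.57%, background 7.22%) became 1 (1.79%, background 1.49%) at 4-fold and 1 with paralog families summed. The 1 gene called lower (1.79%, background 10.6%) became 2 (3.57%, background 12.4%) with the most abundant transcript alone. With length correction 8 were called lower (14.3%, background 6.64%), and at 1.5-fold 15 were (26.8%, background 19.6%). With families summed 0 were called lower, and no background is given for family sums. Over all measured genes, 1239 were called higher, against 747 with at least 100 reads, 2821 at 1.5-fold, 255 at 4-fold and 487 with the interval wholly beyond 2-fold. The 1825 called lower became 747 with log2(TPM + 1), 1199 with at least 100 reads, 1138 with length correction, 3355 at 1.5-fold, 292 at 4-fold and 807 with the interval wholly beyond 2-fold. Of all calls 40.4% were higher, against 48.7% with total counts, 55.7% with log2(TPM + 1) and 48.3% with length correction. The share of reads taken by the light-reaction genes was lower in the jmj16-labelled library by 4.35 percentage points (-4.35), or -4.57 without organelle genes and -4.89 on the TPM scale. Depth limits ELIP2, whose few reads give a wide interval. The single library per genotype limits every other value, since counting intervals leave out the spread between plants.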
